A study of Mus musculus with 483 samples.

Results

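The 40 genes described here encode proteins of the nucleolus that make ribosomes, and they were followed in single mouse cells with and without a treatment named aDll4. The 40 genes, out of 46078 in the count table, were taken from a list of names by a rule that used no measured value, and the list was drawn up with earlier results of these data known. All 40 were found by symbol, and all 40 were detected in 5% or more of the cells, the limit used here for calling a gene measured, which 15204 genes reached. By role the list holds 2 subunits of RNA polymerase I, 5 nucleolar phosphoproteins, GTPases and helicases, 3 proteins of box C/D and 3 of box H/ACA small nucleolar ribonucleoproteins (snoRNPs), 13 factors of the small ribosomal subunit and 14 of the large one.

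The series holds 483 cells of the mouse aorta-gonad-mesonephros region, the part of the embryo in which the first hematopoietic stem cells arise from the wall of the aorta. Of these, 49.5% are labelled Ctrl and 50.5% carry aDll4 as their treatment, a name that the labels leave unexplained, while Dll4 is a ligand of Notch receptors. Both groups passed the same sort for CD31 and Kit and against CD45, and genotype, strain, stage, dose and time are not in the labels. Each library is 1 cell prepared by Smart-seq2, a method that reads whole transcripts without counting molecules, and the labels sort the cells into 7 clusters named ICGS. No label ties a cell to an embryo or a culture, so a treatment counts as 1 sample, the treatments were compared without a test, and errors are spreads over cells or counting intervals.

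The depth was alike in both groups: the shallowest, median and deepest Ctrl cell had 136928, 900286 and 2870618 gene-assigned reads, and for treated cells these were 123097, 869802 and 2451790. No pair of the libraries was identical. The cells are labelled as hematopoietic stem cells, but 97.1% of them had a read of Pecam1 (CD31), 92.6% of Kit, 91.5% of the endothelial cadherin Cdh5 and 2.48% of Ptprc (CD45). The numbers in the library names fall into block 1, below 20000, and block 2, above 22000, and into 6 runs of 96 numbers (runs 1 to 4 in block 1, runs 5 and 6 in block 2), each with cells of both treatments. What the numbers stand for is not given in the sources used here. Embryos were split unevenly: in block 1, 89.3% of the treated cells were positive for Y-linked genes and 0 for Xist, while 43.8% and 48.3% of the Ctrl cells were. In block 2, 92.4% of the treated cells were positive for Xist and 0 for Y-linked genes, against 39.7% and 46.03% of the Ctrl cells. Each treatment thus held cells of both sexes and so of more than 1 embryo, but which cells share an embryo is not known, and treatment can not be told apart from embryo in either block.

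As background, ribosome production starts in the nucleolus, where RNA polymerase I copies the ribosomal RNA genes. SnoRNPs then guide chemical marks onto the new RNA, and large sets of assembly factors fold, cut and export the precursors of the small and the large subunit. The transcription factors Myc and Mycn, which bind DNA with Max at the sequence CACGTG (an E-box), are textbook activators of genes of this kind, and blood progenitors that grow and divide make ribosomes at a high rate.

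The promoters of the 40 genes were searched for this E-box because the report sets the genes beside Mycn and Myc. RefSeq windows on GRCm38.p6, each 300 bases long with 250 before and 50 from the annotated start onward, were given for 35 of the 40 genes. Rrs1, Fbl, Npm1, Rrp12 and Bop1 were not matched. CACGTG, which reads the same on both strands, was found in 9 of the 35 (25.7%), in 16.9% of the windowed genes among 89 other ribosome biogenesis genes, in 11.7% of 9667 measured genes and in 8.09% of all 27025 genes with a window. The 9 sites are shown 5′ to 3′ on the strand of the gene, with the E-box in capitals. Each holds the box and up to 12 bases on either side, and the sites of Grwd1, Utp20 and Pno1 are shorter because the window ends there.
Imp4, chr1:34439696-34439725, plus strand: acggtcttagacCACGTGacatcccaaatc
Nop2, chr6:125131811-125131840, plus strand: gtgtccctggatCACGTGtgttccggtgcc
Pes1, chr11:3963965-3963994, plus strand: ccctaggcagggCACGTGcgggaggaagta
Wdr43, chr17:71616220-71616249, plus strand: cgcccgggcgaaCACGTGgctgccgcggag
Tsr1, chr11:74898092-74898121, plus strand: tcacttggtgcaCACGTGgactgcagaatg
Ltv1, chr10:13193092-13193121, minus strand: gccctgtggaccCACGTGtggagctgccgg
Grwd1, chr7:45830740-45830767, minus strand: gggccggagtcgCACGTGtgaaaccgga
Utp20, chr10:88826765-88826789, minus strand: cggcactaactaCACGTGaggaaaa
Pno1, chr11:17211540-17211564, minus strand: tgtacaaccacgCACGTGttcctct

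Counted from the annotated start as base 0, the box begins at -121 in Imp4 and at -60 in Nop2, and it lies at or after the start in the other 7 genes, from 2 in Pes1 to 37 in Utp20 and Pno1. To show a promoter with the box beside the one of Ddx21, the gene with the largest treatment ratio below, whose window holds no CACGTG, the 250 bases before the start are given for both.
Nop2, chr6:125131633-125131882, plus strand: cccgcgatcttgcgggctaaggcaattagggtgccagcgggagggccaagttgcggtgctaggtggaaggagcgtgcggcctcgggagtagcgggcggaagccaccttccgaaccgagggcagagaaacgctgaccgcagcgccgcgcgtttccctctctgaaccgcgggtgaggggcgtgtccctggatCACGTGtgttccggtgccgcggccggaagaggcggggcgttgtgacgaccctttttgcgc
Ddx21, chr10:62602299-62602548, minus strand: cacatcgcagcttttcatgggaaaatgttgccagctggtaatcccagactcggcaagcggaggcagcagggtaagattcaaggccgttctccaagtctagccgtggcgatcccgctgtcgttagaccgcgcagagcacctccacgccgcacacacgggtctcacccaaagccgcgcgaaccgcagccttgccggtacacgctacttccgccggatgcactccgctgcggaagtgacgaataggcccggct

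The absence of a match says only that these letters are not in this window. The Ddx21 stretch also carries the start of Gm47257, a noncoding gene on the other strand.

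Across all cells the 40 genes were modestly higher with the treatment. For each cell a score was taken, the mean over the 40 genes of log2(CPM + 1), where CPM is the read count per 1000000 gene-assigned reads of that cell. The score ran from 0.549 to 7.96 in Ctrl with a median of 3.53, and from 0.828 to 7.91 in treated cells with a median of 4.07. The means were 3.80 ± 1.49 and 4.21 ± 1.53 (SD over cells, whose numbers stand in the methods). The difference of 0.406 was well under 1 SD, and the cells of both treatments covered nearly the same range. The same difference averaged over all measured genes was 0.0668. The median cell had a read of 27 of the 40 genes in Ctrl and of 29 in treated cells. When every cell was thinned at random to 120000 reads, the means were 3.64 and 4.04.

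Gene by gene, the size of a difference is given as the log2 ratio of treated over Ctrl, from the counts of all its cells added up and scaled to CPM, with 1 CPM added to both. This scale understates differences of low genes. The median over the 40 genes was 0.20, against 0.01 over all measured genes. The ratio was above 0 for 36 of the 40, where 52.2% of measured genes were above 0. It passed 1.2-fold higher for 12 genes (15.4% of measured genes) and 1.2-fold lower for 1 gene, Utp20 (16.9% of measured genes). The 12 were Ddx21, Ppan, Polr1b, Wdr74, Dkc1, Nop14, Rrp9, Bysl, Nolc1, Fbl, Gnl3 and Bop1. Just inside that limit was Bop1 at 0.28 and just outside it was Polr1a at 0.26.

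**Figure D1:**
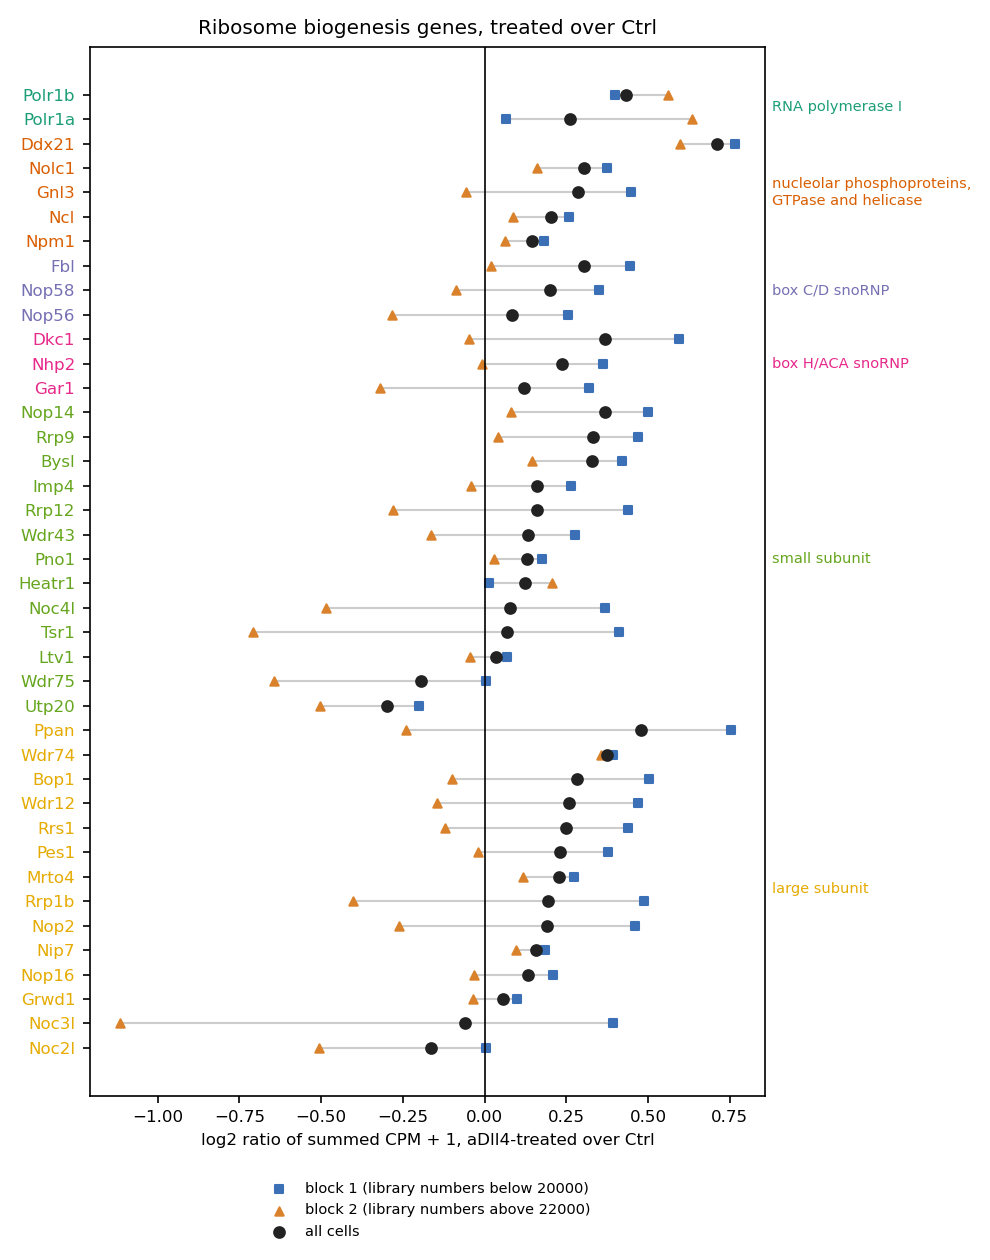
Each row is 1 of the 40 genes, grouped and coloured by role, and the horizontal axis is the log2 ratio of summed CPM + 1, aDll4-treated over Ctrl (black circles all cells, blue squares block 1, orange triangles block 2). For 36 genes the black circle lies right of 0, and for most genes the block 2 triangle lies left of the block 1 square.

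RNA polymerase I was represented by its catalytic core, Polr1a and Polr1b. Polr1b (chr2:129100995-129126594) was read in 33.1% of Ctrl cells (95% interval 27.1 to 39.4) and 49.2% of treated cells (42.8 to 55.6). Its CPM per cell had a median of 0 in both groups and a highest value of 340.4 in Ctrl and 437.1 in treated cells, so all of its signal came from a minority of the cells. Its sums were 22.6 CPM (21.9 to 23.2) and 30.8 CPM (30.04 to 31.5), a log2 ratio of 0.43, and it was above Ctrl in each of the 6 runs, from 0.08 to 1.16. Polr1a stood at 32.3 and 38.9 CPM, a log2 ratio of 0.26, with -0.34 in run 1 and 1.04 in run 6. With Heatr1 they were the only genes of the 40 whose ratio was larger in block 2 (0.56 for Polr1b and 0.63 for Polr1a) than in block 1 (0.40 and 0.06).

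Among the nucleolar phosphoproteins and enzymes, the DEAD-box RNA helicase Ddx21 (chr10:62580251-62602281) had the largest ratio of all 40. Its CPM per cell ran from 0 to 2376 in Ctrl with a median of 26.2, and from 0 to 1030 in treated cells with a median of 50.1. The ranges overlap fully, and the highest single cell was a Ctrl cell. Its sums were 69 CPM (67.9 to 70.1) in Ctrl and 113.5 CPM (112.1 to 114.9) after treatment, a log2 ratio of 0.71. It was above Ctrl in all 6 runs, by 1.02 in run 2 and by 0.17 in run 6, and in both blocks, by 0.76 and 0.60. In reads thinned to one depth its ratio was 0.41.

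Nucleolin (Ncl) and nucleophosmin (Npm1), abundant RNA-binding chaperones of the nucleolus, were read in nearly every cell. Ncl ran from 0 to 3946 CPM per Ctrl cell (median 704.1) and from 16.8 to 4132 CPM per treated cell (median 706.0). Its medians per cell were thus almost equal, while the summed values were 892 and 1027 CPM, a log2 ratio of 0.20. Npm1 ran from 0 to 3930 CPM per Ctrl cell (median 724.3) and from 4.96 to 3542 CPM per treated cell (median 784.1), with sums of 846 and 936 CPM and a log2 ratio of 0.15. About 24.3% of the 50-base words of Npm1 exons also occur in other genes, and how such reads were counted is not given. The snoRNP chaperone Nolc1 had a log2 ratio of 0.30 and the GTPase nucleostemin, Gnl3, one of 0.29, with -0.06 in block 2. All 5 genes of this group were above Ctrl in mean log2(CPM + 1) in both blocks (38.2% of measured genes).

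In box C/D snoRNPs, which methylate ribosomal RNA, the methyltransferase fibrillarin (Fbl) had a log2 ratio of 0.30. Its level was only 5.88 CPM in Ctrl and 7.49 CPM after treatment, the lowest sums of the 40, and it had 1.40 CPM per kilobase of annotated exon in Ctrl, where Npm1 had 317.5. Of the 50-base words of Fbl exons 19.7% also occur in other genes, where the more highly read Npm1 had 24.3% and Nop56 18.6%. The part of this in the low level of Fbl was not tested. Its level is uncertain, and in thinned reads its ratio was -0.04. The scaffold proteins Nop56 and Nop58 had log2 ratios of 0.08 and 0.20. Nop56 ran from 0 to 1075 CPM per Ctrl cell (median 90.7) and from 0 to 1488 CPM per treated cell (median 116.7), with 95% intervals of 161.4 to 164.7 and 171.1 to 174.6 for the sums. Its ratio was -0.50 in run 5 and 0.73 in run 4.

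In box H/ACA snoRNPs, which turn uridine into pseudouridine, the synthase dyskerin (Dkc1) had the largest ratio. Dkc1 ran from 0 to 785.3 CPM per Ctrl cell (median 33.9) and from 0 to 886.3 CPM per treated cell (median 70.4). Summed, it stood at 112.2 and 145.2 CPM, a log2 ratio of 0.37. Dkc1 was higher by 0.60 in block 1 but stood at -0.05 in block 2. Its partners Nhp2 and Gar1 had log2 ratios of 0.24 and 0.12.

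The 13 small subunit factors had a median log2 ratio of 0.13, the lowest of the 6 roles. Of these, 11 were above 0 (52.2% of measured genes), and 3 passed 1.2-fold higher (15.4% of measured genes). The 3 were Nop14 (0.37), Rrp9, a protein of the U3 snoRNP (0.33), and Bysl, which acts late in small subunit maturation (0.33). Nop14, a core protein of the small subunit processome, ran from 0 to 1087 CPM per Ctrl cell (median 19.8) and from 0 to 353.5 CPM per treated cell (median 40.7), with sums of 46.8 and 60.6 CPM. The 3 export and maturation factors Ltv1, Pno1 and Tsr1 had ratios of 0.04, 0.13 and 0.07. Tsr1 shares 32.3% of its exon bases with Srr, and how reads there were counted is not given. Processome proteins also held the low end of the list. Utp20 (chr10:88746607-88826804) stood at 44.6 CPM (43.7 to 45.5) in Ctrl and 36.1 CPM (35.3 to 36.9) after treatment, a log2 ratio of -0.30. Yet the share of cells with a read of it was 59% in Ctrl and 64.3% after treatment, and its mean log2(CPM + 1) was higher in treated cells by 0.15. Its ratio ran from -1.32 in run 5 to 1.49 in run 6, so that no direction held across runs. Wdr75 stood at 80.1 and 69.9 CPM, a log2 ratio of -0.19, near 0 in block 1 (0.0042) and -0.64 in block 2.

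The 14 large subunit factors had a median log2 ratio of 0.21. Of these, 12 were above 0 (52.2% of measured genes) and 3 passed 1.2-fold higher (15.4% of measured genes). Ppan, a factor of early large subunit assembly, ran from 0 to 584.4 CPM per Ctrl cell (median 2.27) and from 0 to 1070 CPM per treated cell (median 31.7). Summed, it stood at 52.5 and 73.4 CPM, a log2 ratio of 0.48. Block 1 gave 0.75 and block 2 gave -0.24. Wdr74 stood at 56.1 and 73.1 CPM, a log2 ratio of 0.38, and was above Ctrl in all 6 runs, from 0.07 to 0.85. Bop1, Pes1 and Wdr12, which form one complex in large subunit maturation, had like ratios of 0.28, 0.23 and 0.26. Each was below 0 in block 2, by -0.10, -0.02 and -0.15. Nop2, a methyltransferase of large subunit RNA, ran from 0 to 501.7 CPM per Ctrl cell (median 4.47) and from 0 to 521.7 CPM per treated cell (median 12.4), with sums of 65.2 and 74.6 CPM, a log2 ratio of 0.19, and -0.74 in run 5. The partners Noc2l and Noc3l and the chaperone Grwd1 were at the low end, with -0.16, -0.06 and 0.06. Noc2l was the single gene of the 40 whose mean log2(CPM + 1) was lower in treated cells in both blocks, and 20.9% of its exon bases overlap Samd11.

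The treatment ratio differed between the blocks of library numbers. The median over the 40 genes was 0.37 in block 1 and -0.04 in block 2. In block 1, 27 of the 40 passed 1.2-fold higher (17.6% of measured genes), whereas in block 2 there were 4 (26.7% of measured genes) and 10 passed 1.2-fold lower (25.8% of measured genes). The score difference had one sign in both, 0.491 in block 1 and 0.186 in block 2, the smaller block with 63 and 66 cells. By mean log2(CPM + 1), 24 of the 40 were higher in treated cells in both blocks (38.2% of measured genes) and 1 was lower in both (16.7% of measured genes).

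By run of library numbers, the score difference was 0.614, 0.776, 0.0868 and 0.492 in runs 1 to 4, -0.331 in run 5 and 0.782 in run 6. Run 5 thus went against the others, with means of 3.84 ± 1.68 (SD over 37 Ctrl cells) and 3.51 ± 1.62 (SD over 30 treated cells). In at least 5 of the 6 runs 27 of the 40 were higher in treated cells by mean log2(CPM + 1), where 19.1% of measured genes were, and 0 were lower, where 7.21% of measured genes were. By that measure Wdr74, Gnl3, Ddx21, Polr1b, Rrs1 and Rrp12 were higher in all 6, a count for which the share of measured genes was not taken. By summed CPM, Wdr74, Ddx21 and Polr1b of these were also above Ctrl in all 6 runs. So was Npm1, by 0.0089 in run 6, while by mean log2(CPM + 1) it was higher in 5 runs. The share of measured genes was not taken for this count either. The summed log2 ratio was -0.65 for Rrp12 in run 5 and -0.45 for Gnl3 in run 6. For Rrs1 it was -0.095 in run 1 and -0.40 in run 5. Without run 5, 24 of the 40 passed 1.2-fold higher (16.8% of measured genes). Among the cells positive for Y-linked genes in block 1, which leaves out the Xist-positive Ctrl cells, 30 did (26.8% of measured genes).

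**Figure D2:**
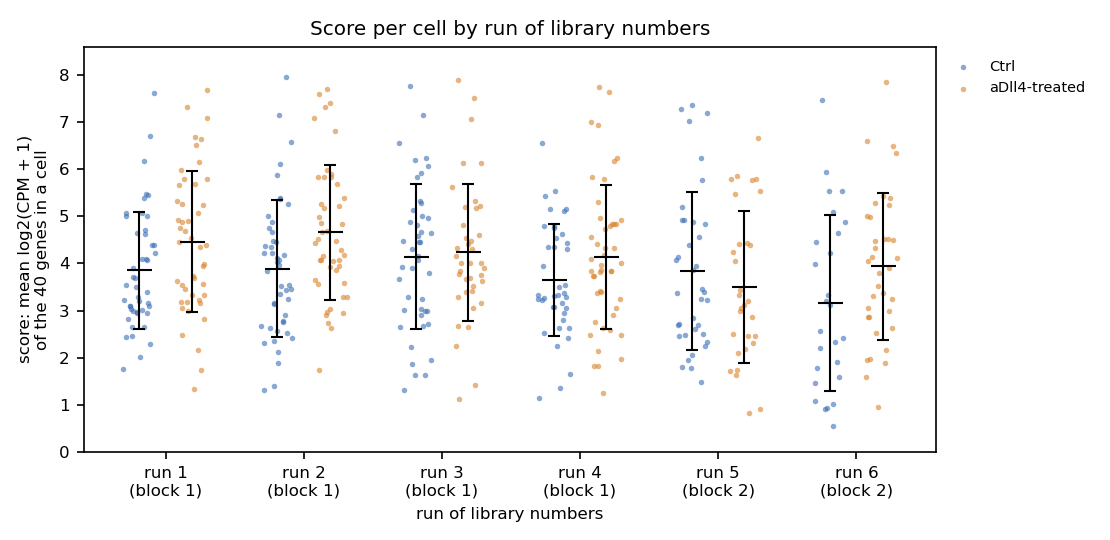
Each point is 1 cell, by run of library numbers on the horizontal axis and treatment by colour, and the vertical axis is the score, the mean log2(CPM + 1) of the 40 genes, with black bars for mean and SD over cells. Treated means lie above Ctrl means in runs 1 to 4 and 6 and below in run 5, and all pairs overlap broadly.

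Other measures of the same cells are given beside the score. The mean log2(CPM + 1) of 18 S phase genes was 4.75 in Ctrl and 5.15 in treated cells, and of 16 G2 and M phase genes 4.99 and 5.29. In summed CPM the median log2 ratio was 0.17 for the S phase genes and -0.05 for the G2 and M phase genes, so the latter had no one direction on both scales. The median cell had 7459 genes with a read in Ctrl and 7624 in treated cells, and mitochondrial genes held 8.25% and 7.93% of the reads. Of the markers of other cell types, 8 of 8 megakaryocyte genes (summed level in runs 20.6 to 916.8 CPM in Ctrl and 202.9 to 3118 CPM in treated cells), 9 of 10 erythroid genes (40.3 to 119.4 and 71.1 to 799.8 CPM) and 9 of 12 pan-hematopoietic genes (333.1 to 620.2 and 435.5 to 869.0 CPM) were higher in treated cells. So were 6 of 10 myeloid genes (13.2 to 64.9 and 16.6 to 159.7 CPM, with Ctss, C1qa and C1qb at 0 in both groups) and 7 of 12 mesenchymal genes (11.3 to 1701 and 36.5 to 1298 CPM). Arhgap30 was at 0 in treated cells. Of 14 pan-endothelial genes 1 was higher. For comparison, 52.2% of all measured genes were higher in treated cells. Counting only measured genes, 4 of 4 myeloid genes were higher but only 5 of 10 mesenchymal ones. The mesenchymal genes kept no one direction: their median on the log2 scale was negative in block 1 (-0.67) and positive in block 2 (1.39). The part of these measures in the treatment ratios was not tested, beyond the values within clusters given below.

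Further ribosome biogenesis genes, 14 of the RNA polymerase I machinery, 41 of the small subunit, 44 of the large subunit and 9 of snoRNP assembly, were listed by role and not by how they moved. Their median log2 ratio was 0.08, between that of the 40 genes (0.20) and that of all measured genes (0.01). Of these genes 79 (73.1%) were above 0, 24 (22.2%) passed 1.2-fold higher and 3 (2.78%) lower. Over all measured genes the shares were 52.2%, 15.4% and 16.9%. The medians by list were 0.18 for snoRNP assembly, 0.14 for the large subunit, 0.10 for the RNA polymerase I machinery and 0.05 for the small subunit. The highest ratios were those of the processome protein Wdr3 (30.9 and 45.1 CPM, 0.53), the helicase Ddx55 (15.9 and 22.7 CPM, 0.49) and Rrp15 (52.5 and 71.9 CPM, 0.45). The lowest were those of the kinase Riok3 (95.1 and 72.7 CPM, -0.38), Utp18 (69.7 and 57.3 CPM, -0.28) and the polymerase I initiation factor Rrn3 (50.9 and 42 CPM, -0.27). Small subunit genes were thus the lowest list here as they were among the 40.

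Larger differences lay between the clusters that the labels give. These were built from expression in the same cells, so their levels are a description. The score was 3.51 ± 1.02 (SD over cells) in cluster 1, 3.99 ± 1.34 in cluster 2, 3.44 ± 1.65 (67 cells) in cluster 3, 4.73 ± 1.39 (22 cells) in cluster 4 and 4.67 ± 0.865 (13 cells) in cluster 5. It was 6.54 ± 1.66 (33 cells) in cluster 6 and 5.23 ± 1.30 (20 cells) in cluster 7. Ordered by mean (clusters 3, 1, 2, 5, 4, 7 and 6), each cluster lay within 1 SD, the larger of both, of the next, while cluster 6 lay more than 1 SD above clusters 1 to 5.

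**Figure D3:**
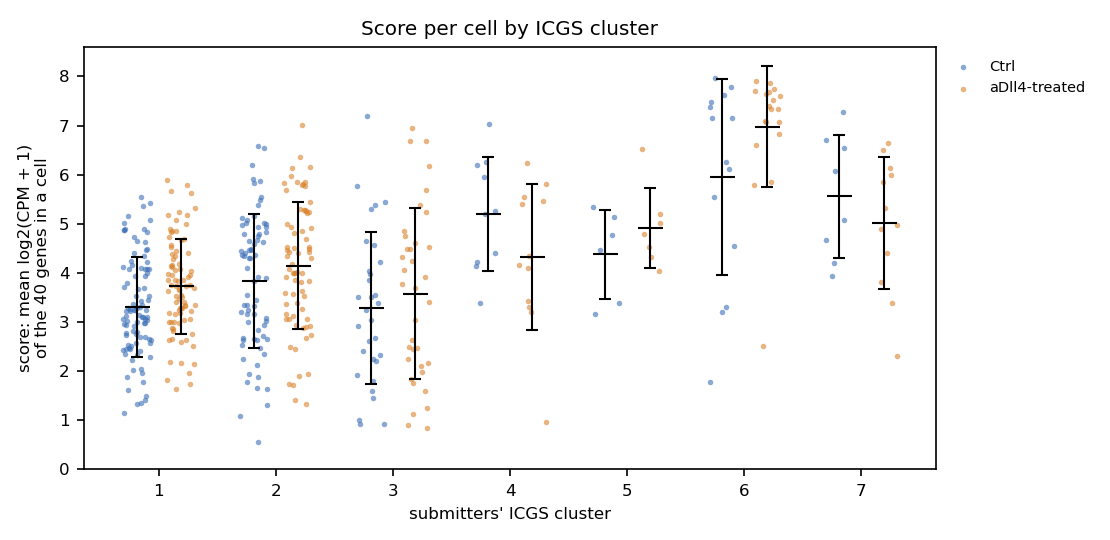
Each point is 1 cell, by ICGS cluster on the horizontal axis and treatment by colour, and the vertical axis is the score, the mean log2(CPM + 1) of the 40 genes, with black bars for mean and SD over cells. Cluster 6 has the highest means, 5.95 in Ctrl and 6.98 in treated cells, with a few cells of both treatments far below.

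Clusters 6 and 7 were the blood-like ones by their markers: the median pan-hematopoietic gene was 4.38 and 5.13 above clusters 1 to 3 on the log2 scale, and the median pan-endothelial gene stood at -5.18 and -5.04. Cluster 7 carried megakaryocyte genes most strongly, with a median of 8.67, where cluster 6 had 4.68. Clusters 4 and 5 had endothelial genes at -5.22 and mesenchymal genes at 6.08.

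Cluster 6 had all 40 genes higher. In summed CPM, each of the 40 was more than 2-fold above clusters 1 to 3, where 13.1% of measured genes were, and 0 were more than 2-fold below, where 24.3% of measured genes were. The median log2 ratio was 1.75, against -0.04 over all measured genes. The largest were those of Ddx21 (377.0 CPM in cluster 6 and 46.4, 75.9 and 89.8 CPM in clusters 1, 2 and 3, a log2 ratio of 2.56), Nolc1 (2.42), Wdr12 (2.36), Gnl3 (2.34) and Noc4l (2.33). The smallest was that of Nop14 (1.05). Ncl reached 2785 CPM in cluster 6, against 615.7, 837.2 and 997.4 CPM in clusters 1 to 3, and Npm1 1971 CPM. The median was 1.87 within Ctrl, 1.65 within treated cells, 1.85 in block 1 and 1.55 in block 2. The lowest gene stood at 0.574 within Ctrl (Noc2l), 0.567 within treated cells (Nop14), 1.15 in block 1 (Nop14) and 0.18 in block 2 (Utp20). Of these 4 subsets, only in block 1 did each of the 40 pass 2-fold. Every one of the 40 genes had a read in 17 of 33 cells of cluster 6 (51.5%, exact 95% interval 33.5 to 69.2) and in 5 of 395 cells of clusters 1 to 3 (1.27%, 0.412 to 2.93).

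Cluster 7, the other blood-like cluster, showed less. Of the 40 genes, 7 passed 2-fold over clusters 1 to 3 (10.8% of measured genes), and the median was 0.58. Rrp12 (1.58), Noc4l (1.56), Ddx21 (1.38), Ltv1 (1.19), Nop2 (1.12), Dkc1 (1.12) and Noc3l (1.10) were these 7, while Utp20 was lower at -0.87. In clusters 4 and 5 together 4 genes passed 2-fold (11% of measured genes): Rrp1b (1.30), Heatr1 (1.14), Dkc1 (1.13) and Tsr1 (1.13). The 40 thus passed it no more often than measured genes did. Heatr1 stood at 92.8 CPM in cluster 4 but at 15.2 CPM in cluster 5, against 17.8, 29.9 and 48.2 CPM in clusters 1, 2 and 3. Of 20 cells in cluster 7, 0 had a read of all 40 genes, which allows a share of up to 15%. Cells of cluster 6 had a median of 8454 genes with a read, those of cluster 7 had 7994 and those of clusters 1, 2 and 3 had 7795, 7370 and 5937. In thinned reads the cluster 6 score was still 2.94 above that of clusters 1 to 3, where it was 2.87 in the full reads.

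**Figure D4:**
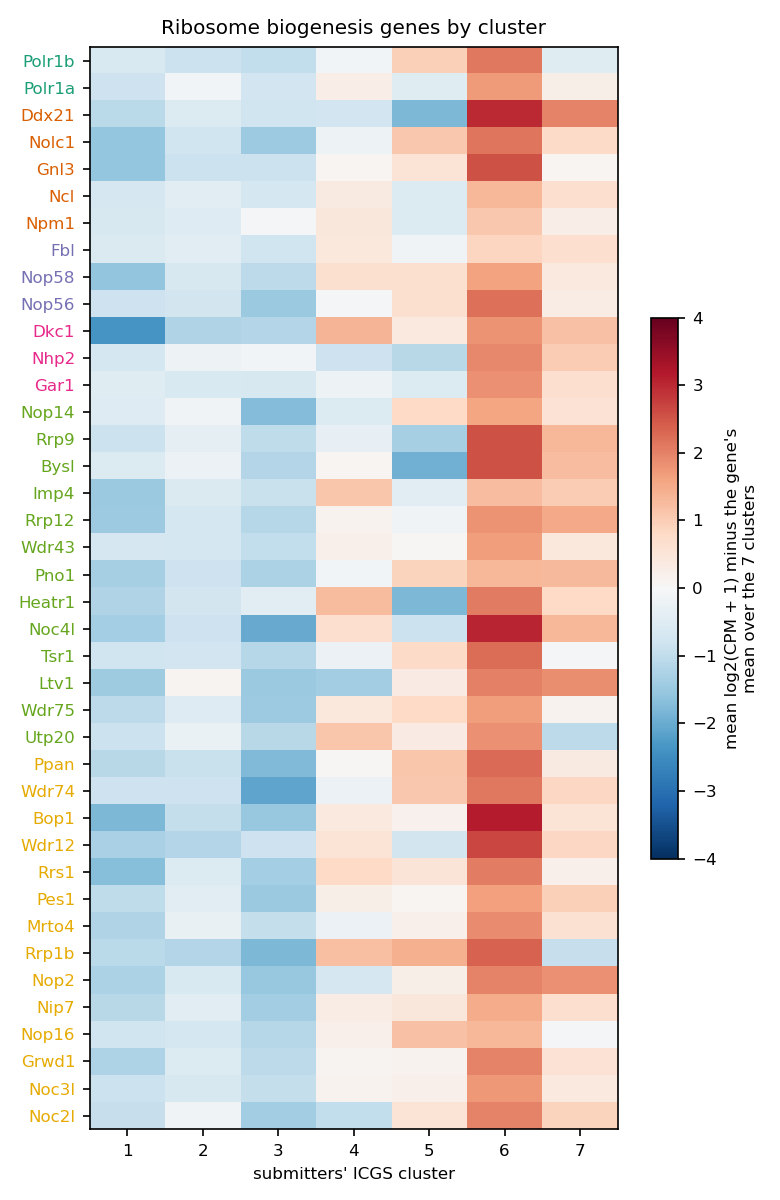
Rows are the 40 genes in the order of the plot of treatment ratios, columns are the 7 ICGS clusters, and colour is the mean log2(CPM + 1) in a cluster minus the mean of that gene over the 7 clusters (red above, blue below). Column 6 is red for all genes, with Bop1, Noc4l and Ddx21 darkest, and columns 1 and 3 are mostly blue.

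Within clusters the treatment difference of the score was 0.421, 0.306 and 0.298 in the endothelial clusters 1, 2 and 3, and 0.541 in cluster 5 (6 and 7 cells). It was -0.876 in cluster 4, 1.03 in cluster 6 and -0.547 in cluster 7, from 10 and 12, 14 and 19, and 8 and 12 cells. In cluster 6 the median of the 40 log2 ratios of summed counts was -0.11 although the mean score was higher in treated cells: the Ctrl scores there ran from 1.78 to 7.96 with a median of 6.70, and the treated ones from 2.51 to 7.91 with a median of 7.34. Within clusters 1 to 3 together 14 of the 40 genes passed 1.2-fold higher (16% of measured genes) and 2, Noc2l and Utp20, passed it lower (19.6% of measured genes), and the median was 0.17. Cluster 6 made up 5.86% of Ctrl and 7.79% of treated cells and cluster 7 made up 3.35% and 4.92%. With both treatments set to the same cluster shares the median was 0.05, and 4 of the 40 genes passed 1.2-fold higher (14% of measured genes).

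Mycn and Myc were read from the same cells. Mycn (chr12:12936093-12941914) ran from 0 to 831.6 CPM per Ctrl cell (median 15.4) and from 0 to 1020 CPM per treated cell (median 64.5), and stood at 77.8 and 142.4 CPM in sum, a log2 ratio of 0.86. It was above Ctrl in all 6 runs, by 1.17 in block 1 and 0.07 in block 2. Myc (chr15:61985391-61990374) ran from 0 to 1907 CPM per Ctrl cell (median 1.41) and from 0 to 1057 CPM per treated cell (median 5.18), and stood at 80.4 and 107.6 CPM, a log2 ratio of 0.42. Cluster 6, where the 40 genes were highest, had 461.2 CPM of Myc against 43.5, 74.6 and 63.8 CPM in clusters 1, 2 and 3, and 69.4 CPM of Mycn against 119.1, 108.8 and 100.2 CPM. Clusters 4, 5 and 7 had 45.9, 154.8 and 118.5 CPM of Myc and mean scores of 4.725, 4.665 and 5.232. Over the 7 clusters Myc and the score thus did not have the same order. For Mycn clusters 4, 5 and 7 had 136.9, 95.9 and 107.3 CPM. The log2 ratio of Mycn in cluster 6 over clusters 1 to 3 was -1.21 in block 1 and 0.24 in block 2, so no direction held in both blocks, while that of Myc was 2.89 and 3.47. A read of Mycn was found in 72.7% of the cells of cluster 6 and in 75.4%, 69.7% and 59.7% of those of clusters 1, 2 and 3.

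The score was also set against Mycn and Myc from cell to cell. Spearman's rho was computed within each set of cells sharing treatment, block and cluster and holding at least 10 cells, and averaged by the number of cells. It is a description with no p, since cells share embryos and depth. For Mycn it was 0.382 in Ctrl (6 sets, from 0.0641 to 0.455) and 0.0615 in treated cells (7 sets, from -0.444 to 0.313). The lowest treated set was the 14 cells of cluster 6 in block 1, for which Ctrl had no set of this size, and over the sets of clusters 1 to 3 alone, an alternative chosen after seeing the data, the treated mean was 0.0979. Pearson's r was 0.417 and 0.0973. For Myc rho was 0.294 in Ctrl and 0.223 in treated cells. With the number of genes detected held fixed, Mycn had 0.272 and -0.0178, and Myc had 0.234 and 0.0859. The score followed the number of genes detected more closely (0.660 and 0.573) and likewise the S phase genes (0.645 and 0.491). Whether the Mycn relation differs between treatments was not tested.

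Set among all 15162 other measured genes that vary in Ctrl cells, Mycn ranked 305 by its rho with the score, above 97.99% of them. In treated cells it ranked 10107 of 15164, above 33.4%. Myc ranked 1228 and 2210, above 91.9% and 85.4%. Over all 483 cells at once, the rho of the score was 0.448 with Myc and 0.239 with Mycn, which includes the differences between clusters.

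Cells with a read of Mycn had the higher score in both treatments. In Ctrl the score was 4.15 ± 1.38 with and 3.18 ± 1.495 without a Mycn read (SD over cells, 86 without), and in treated cells 4.34 ± 1.49 with and 3.66 ± 1.62 without (49 without). The median number of genes detected was 7751 and 6830 in Ctrl and 7837 and 6625 in treated cells, so cells with a Mycn read were also the richer ones. Among cells with a Mycn read treated cells were 0.194 above Ctrl, and among cells without one they were 0.482 above. Split by a Myc read the order was the other way, 0.453 with a read and 0.142 without. Within clusters 1 to 3 the Mycn split gave 0.134 and 0.434, and the Myc split 0.35 and 0.309. For Myc the gap between cells with and without a read was 0.947 in Ctrl and 1.26 in treated cells, and within clusters 1 to 3 it was 0.727 and 0.769.

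**Figure D5:**
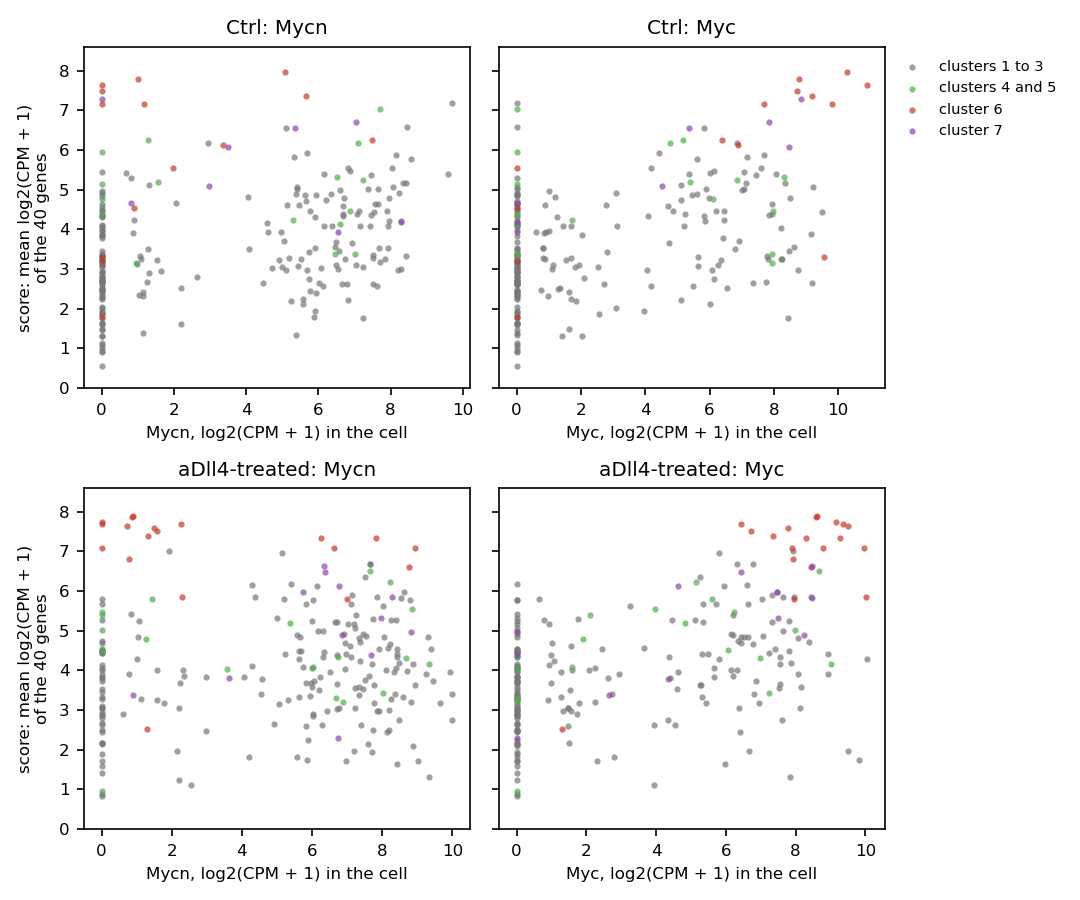
Each point is 1 cell, with log2(CPM + 1) of Mycn (left) or Myc (right) on the horizontal axis and the score of the 40 genes on the vertical axis, Ctrl above and treated below, coloured by cluster. Cells of cluster 6 (red) gather at high score and high Myc, and many of them at low Mycn, and the grey endothelial cells of both treatments spread over the whole range of Mycn.

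The 40 genes also varied together from cell to cell. Each gene was correlated with the mean of the other 39 within the same sets of cells. The median rho was 0.368, from 0.210 to 0.574, against 0.114 for the median of 15164 other genes with the score and 0.268 for the other ribosome biogenesis genes. Highest were Ncl (0.574), Nop58 (0.547) and Gnl3 (0.495), and lowest were Heatr1 (0.210), Polr1a (0.251) and Nop14 (0.253). The lowest 3 had a read in 48.4%, 51.8% and 70% of cells and the highest 3 in 99.6%, 91.5% and 84.5%, and the part of detection in this order was not tested.

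The 10 genes outside the list most like the score were Eif5a (0.577), Eif5al3-ps, Srm, Ran, Gm12020, Eif4a-ps4, Ruvbl2, Gm13461, Srsf7 and Pa2g4 (0.490), by the mean rho within the 13 sets of cells. Eif5a is a translation factor, Srm makes spermidine, Ran is the GTPase of nuclear transport, and Ruvbl2 takes part in snoRNP assembly. Eif5al3-ps and Eif4a-ps4 are named as pseudogenes, and their reads may come from their parent genes. In treatment ratio these 10 ran from 0.08 for Eif4a-ps4 to 0.38 for Srm.

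The 9 genes with an E-box in the promoter window had a median treatment ratio of 0.13, from -0.30 to 0.23. The 26 with a window and no E-box had a median of 0.23, from -0.19 to 0.71. In cluster 6 over clusters 1 to 3 the medians were 1.38 and 1.78. This split was made after the values were seen.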

How the data were processed

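The 483 libraries each hold 1 cell, 239 of Ctrl (176 in block 1 and 63 in block 2) and 244 treated (178 and 66). Clusters 1 to 7 hold 183, 145, 67, 22, 13, 33 and 20 cells. Per the labels' protocols cDNA was made by Smart-seq2 and sequenced from Nextera XT libraries. The authors deposited raw whole-number read counts. GSNAP, an aligner, HTSeq 0.6.0, a read counter, and build mm10 are named in the submitters' processing notes, but not the annotation, the counting settings, the use of strand or any cell filter. Reads without strand or molecular identifiers cannot be split between overlapping genes and are not independent molecules, so all intervals cover counting error only.

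The members and lists were chosen with earlier results of these data known, and all treatment comparisons rest on the same Ctrl cells. Of 109 further ribosome biogenesis genes 108 were matched. Correlations used 201 Ctrl and 208 treated cells. Symbols, positions and exon lengths came from GENCODE M21 on the same build (45143 of 46078 identifiers matched), and promoters from RefSeq on GRCm38.p6. Counts were summed per treatment, block, run or cluster and scaled to CPM of all gene-assigned reads, with exact Poisson 95% intervals for levels and exact Clopper-Pearson 95% intervals for shares. A share of 0 is given with the limit of 3 counts. All cells were kept, doublets were not called, and 0 columns belonged to no sample. Cells with at least 10 reads of Xist or of Y-linked genes were called positive for them. All 40 members may be named, with full values for the 6 largest and 6 smallest ratios, for 8 genes set in advance and for Mycn and Myc. Copies were sought as 50-base words of member exons found in exons of other genes. Calculations used Python 3.11.15, numpy 2.4.6, pandas 2.3.3 and scipy 1.17.1, and the scripts were tested on simulated data. Alternatives covered the pseudocount, scaling, depth, clusters, blocks, runs and sex.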

Additional observations from a re-analysis of the deposited data

How the results depend on the processing

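The count of genes past 1.2-fold higher was 12 in the full data and depended most on which cells were used. It was 27 in block 1 alone, 4 in block 2 alone, 30 in the Y-positive cells of block 1 and 4 with the same cluster shares in both treatments, and it ran from 9 to 24 when 1 run of library numbers was left out, the latter without run 5. The median log2 ratio was -0.0426 in block 2 alone and lay between that and 0.394 over 20 alternatives, and the score difference lay between 0.175 and 0.651 over 16. The cause was not tested. Of 800 gene values under alternatives 731 kept their sign and 69 did not, and 13 genes were above 0 in every setting. These counts are no measure of robustness. A change of pseudocount can not turn a sign, and settings that leave out 1 run reuse most of the same cells. The same shares over all measured genes were not taken. In block 2, 21 of the 36 genes above 0 in all cells were below 0. Among the 13 genes past 1.2-fold in either direction in the full data, the sign turned for Fbl (-0.0396) and Utp20 (0.0116) in thinned reads, for Gnl3 (-0.0587), Dkc1 (-0.0468), Bop1 (-0.101) and Ppan (-0.242) in block 2, for Utp20 in the Y-positive cells of block 1 (0.141), and for Gnl3 (-0.0366) and Fbl (-0.0183) in the Xist-positive cells of block 2. Spearman's rho with Mycn in Ctrl was 0.224 over cells with a read of it and 0.272 with genes detected held fixed, and in treated cells -0.0127 and -0.0178. With Myc it was 0.178 over Ctrl cells with a read. With genes detected held fixed, rho with Myc was 0.234 in Ctrl and 0.0859 in treated cells. Over the sets of clusters 1 to 3 alone, chosen after seeing the data, the means were 0.382 and 0.0979 for Mycn and 0.294 and 0.246 for Myc. No paired analysis was possible because the results come from no test: the replicate numbers in the labels count single cells, and no label ties a cell to an embryo. Values within each block and run stand in their place.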
